A study of Mus musculus with 4 samples.

Results

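The peaks described here were the flag-PRDM6 ChIP-seq peaks that the authors' annotation placed in the fourth intron of a transcript or in an intron farther downstream, called late introns here. They were chosen by the intron number alone. There were 1703 of them among 13977 peaks in all, which was 12.2% of the list and 34.0% of its 5016 intronic peaks. First introns held 1765 peaks and introns 2 and 3 held 1548. The cells were primary smooth muscle cells (SMCs) grown from the outflow tract of mouse embryos, given as E17.5 in the study's results. Its methods describe such cells as taken from the aortic arch and ductus arteriosus of Prdm6 fl/fl embryos (a floxed allele, with no Cre named for these cells) at E18.5, on a C57/Black6 background. All 4 libraries came from cells infected with a lentivirus that overexpressed FLAG-tagged PRDM6. The PRDM6 ChIP group was 2 libraries precipitated with an anti-FLAG antibody, and the Input group was 2 libraries of chromatin without precipitation. The protein was therefore tagged and expressed from a virus, and no library without the virus was analysed here. The study's text is not uniform on whether both precipitations shared their chromatin sample, so how far they cover differences between cultures is not known.

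PRDM6 is a member of the PR/SET domain family with zinc fingers, is expressed selectively in SMCs and acts as a transcriptional regulator. Introns are transcribed and spliced out, and long introns often carry enhancers, which are stretches of DNA bound by transcription factors that can act on the gene that holds them or on a neighbour. AP-1 is a dimer of FOS and JUN proteins that binds many enhancers. TEAD proteins are the DNA-binding partners of the Hippo pathway's YAP and TAZ and also bind SMC enhancers.

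The strongest of these peaks show what such a site looked like. Each sequence is the 101 bp around the summit of one of the 10 strongest peaks, read on the plus strand of the GRCm38 genome (mm10), and capitals mark an AP-1 word (TGACTCA or TGAGTCA) or a TEAD word (AGGAATGC, AGGAATGT, GGGAATGC or GGGAATGT, here read on the other strand). The windows were chr13:99391586-99391686 in intron 4 of Mrps27, chr10:68008393-68008493 in intron 6 of Rtkn2, chr15:62287348-62287448 in intron 5 of Pvt1, chr1:82429178-82429278 in intron 6 of Rhbdd1 and chr19:24730724-24730824 in intron 8 of Pgm5. The first 4 are shown because they held a word within 50 bp of the summit, and Pgm5 because it was the second strongest peak and held neither.
Mrps27: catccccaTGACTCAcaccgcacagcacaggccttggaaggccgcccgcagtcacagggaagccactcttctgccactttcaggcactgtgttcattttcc
Rtkn2: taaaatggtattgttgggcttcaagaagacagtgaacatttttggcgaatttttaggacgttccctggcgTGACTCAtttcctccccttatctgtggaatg
Pvt1: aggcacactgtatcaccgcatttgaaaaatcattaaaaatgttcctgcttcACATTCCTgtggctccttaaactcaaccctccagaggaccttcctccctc
Rhbdd1: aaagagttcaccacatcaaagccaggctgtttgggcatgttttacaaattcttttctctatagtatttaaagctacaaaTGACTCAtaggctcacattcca
Pgm5: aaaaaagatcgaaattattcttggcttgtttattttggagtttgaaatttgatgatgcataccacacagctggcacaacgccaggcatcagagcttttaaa

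The next sequences are centred on a word in other strong peaks. Ppp1r12b, which encodes a regulatory subunit of myosin phosphatase, is shown for a pair of AP-1 words in its intron 18 (chr1:134818908-134818968, plus strand). Lama2, which encodes the laminin alpha 2 chain of basement membrane, is shown for a TEAD word in its intron 41 (chr10:27063795-27063856, plus strand). Immp2l, which encodes a subunit of the mitochondrial inner membrane peptidase, is shown for an AP-1 and a TEAD word a few bases apart in its intron 5 (chr12:41693949-41694010, minus strand).
Ppp1r12b: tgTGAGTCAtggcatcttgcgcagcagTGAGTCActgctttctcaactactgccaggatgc
Lama2: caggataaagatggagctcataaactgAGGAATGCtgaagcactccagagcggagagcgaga
Immp2l: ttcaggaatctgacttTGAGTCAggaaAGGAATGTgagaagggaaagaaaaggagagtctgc

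The strength of a peak is given as the −log10 p-value of the peak caller in each replicate. The replicates are named by their order in the list (first-listed, second-listed), which does not say which library each was. The matched value is the smaller of both. Mrps27, which encodes a protein of the mitochondrial ribosome, held the strongest peak, with 25.4 in the first-listed and 33.8 in the second-listed replicate. The annotation assigned this peak to 6430562O15Rik. Pgm5, a phosphoglucomutase-like protein of muscle adhesion sites, followed with 25.2 and 31.4. The peak of Rtkn2 had 25.4 and 22.1. The order of the replicates thus differed among the strongest peaks, and 6 of the 10 strongest were higher in the second-listed replicate. The long noncoding RNA gene Pvt1 had 26.3 and 22.0, and Adamtsl3, a matrix protein related to the ADAMTS proteases, had 19.94 and 20.99 in intron 15, which was the first intron of another of its transcripts. Pappa2, a protease of insulin-like growth factor binding proteins, had 23.9 and 19.9 in intron 20, and the annotation gave that peak to the neighbouring gene Astn1. Rhbdd1, an intramembrane protease, had 18.4 and 19.6. The last of the 10 lay in 2 adhesion genes and a signalling gene. Cdh18, a cadherin, had 17.9 and 18.8, Traf2, an adaptor of tumor necrosis factor receptors, had 17.9 and 19.9, and Ctnnd2, a delta-catenin, had 17.9 and 16.9. Of these 10 peaks, 3 held an AP-1 word and 1 a TEAD word within 100 bp of the summit.

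Most of the peaks were far weaker than these. The median was 6.92 (quartiles 5.42 and 9.37) in the first-listed replicate and 6.61 (5.10 and 8.25) in the second-listed, and the matched values lay between 3.05 and 25.4 around a median of 5.53. The first-listed value was the higher in 914 peaks and the second-listed in 789. Across the 1703 peaks the values of both replicates had a Spearman correlation of 0.269, over points that share libraries, background and the threshold of the peak caller. Where the p-value could be read back to a pileup, the median pileup at the peak was 15 fragments in the first-listed replicate (976 peaks) and 13 in the second-listed (1037 peaks), against genome-wide backgrounds of 2.61 and 2.39 fragments. The lowest of these pileups were 9 and 8 fragments, so that single peaks rest on few fragments. The summits of both replicates lay a median of 115 bp apart, and 804 peaks (47.2%) had them within 100 bp. The peaks were 143 to 4061 bp wide with a median of 580 bp.

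Reproducibility was given as the irreproducible discovery rate (IDR), which is low for a peak that ranks high in both replicates. Peaks whose global IDR was no higher than 0.05 are called reproducible here. They were 52 of the 1703 peaks, or 3.05% (95% Wilson interval 2.34 to 3.98), where the whole list had 3.33%. The share was 3.29% in first introns and 2.33% in introns 2 and 3. The differences of -0.23 percentage points (95% interval -1.41 to 0.95) and 0.73 points (-0.41 to 1.86) did not pass Fisher's exact test (two-sided, adjusted p = 0.84 and 0.56 over 12 comparisons). At the other end, 993 peaks (58.3%) had a global IDR above 0.5, and 710 (41.7%) had the lowest score in the list. These shares were near those of the whole list, 59.1% and 41.4%. The 52 reproducible peaks lay in 51 genes. Trps1, a GATA-type zinc finger repressor, was the gene with a pair of them, both in intron 4 (intron 3 of another transcript), with 15.8 and 14.7 at the stronger and 13.1 and 12.6 at the weaker. Of all the peaks described here, 49.9% lay above the median strength of the whole list, against 50.3% in first introns, 49.0% in introns 2 and 3 and 49.7% in all other peaks. None of these 3 differences passed Fisher's exact test (adjusted p from 0.84 to 0.90), and their intervals together ran from -3.78 to 4.26 percentage points.

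**Figure D1:**
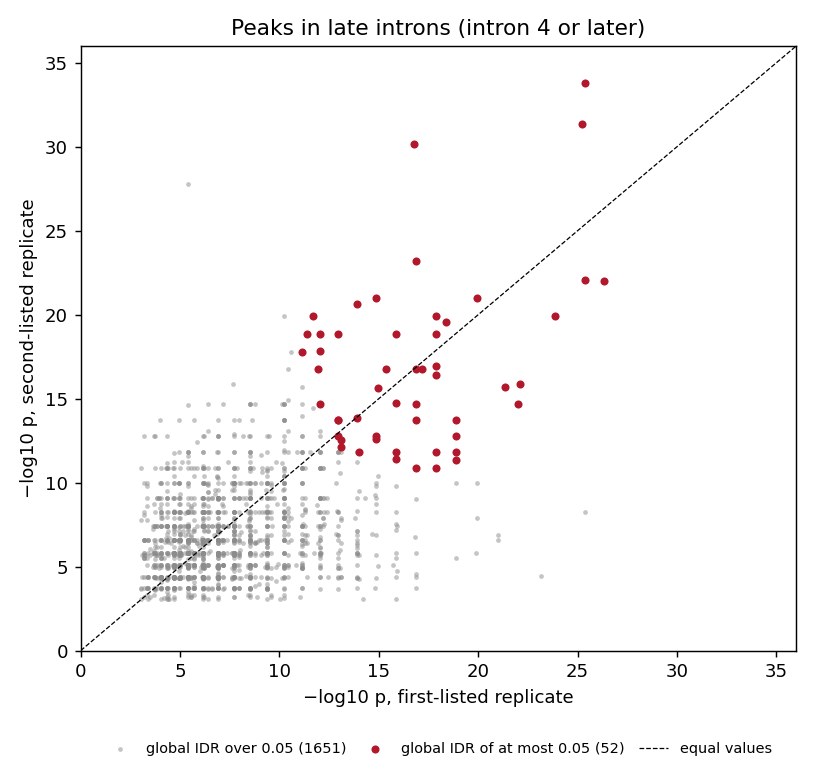
Each point is one of the 1703 peaks in late introns, with its −log10 p in the first-listed replicate on the x axis and in the second-listed on the y axis. The 52 reproducible peaks (red) lie away from the origin on both axes, while the 1651 others (grey) crowd near it and scatter widely around the dashed line of equal values.

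These peaks lay deep inside long genes. The annotated intron could be matched to a gene model for 1696 peaks. Those introns had a median length of 26530 bp (quartiles 9730 and 64490), and the summit lay a median of 5306 bp from the nearer end of the intron. The summit was a median of 141600 bp from the transcription start site (TSS) of its own transcript, at 69.2% of the way along it. Within the intron the summits were fewest at the ends, with 269 in the fifth next to the 5′ end, then 361, 398 and 388, and 280 in the fifth at the 3′ end. Exon peaks carry a label of their own, which leaves fewer peaks to count at the ends. The intron number had a median of 7 and reached 86. Just outside the rule, intron 3 held 555 peaks with a median matched value of 5.53, and just inside, intron 4 held 394 with a median of 5.42. Intron 5 held 236, introns 6 to 10 held 637, introns 11 to 20 held 291, and introns from 21 on held 145, with medians from 5.14 to 5.69.

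The number depends on the transcript that the annotation chose. For 1435 peaks (84.3%) the intron was the fourth or later in every transcript of the basic gene set, while 74 peaks (4.35%) lay in a first intron and 177 (10.4%) in intron 2 or 3 of another transcript. None overlapped an exon of the basic set, and 70 came within 3 kb of a TSS. The annotation labels exon and promoter peaks separately, so few of either could be among those labelled intronic. The host was a protein-coding gene for 1579 peaks and a long intergenic noncoding RNA gene for 65.

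Peaks were less dense in late introns than in the first 3, and long late introns carried most of them. With 1 transcript per protein-coding gene, late introns held 3.64 peaks per Mb (95% Poisson interval 3.47 to 3.83), against 4.94 (4.67 to 5.21) in first introns and 4.93 (4.66 to 5.22) in introns 2 and 3. The value was 4.48 in intron 4, 4.22 in intron 5, 4.05 in introns 6 to 10, 2.81 in introns 11 to 20 and 2.65 from intron 21 on. Most late introns were short (87575 of 132417 were under 2 kb), and short ones held few peaks. Those under 2 kb had a median length of 618 bp. They leave little room for peaks that overlap no exon and have a median width of 580 bp. Late introns under 2 kb held 0.68 peaks per Mb and those of 2 to 10 kb held 2.57. Those of 10 to 50 kb held 5.24 (4.85 to 5.64) and those of 50 kb or more held 5.14 (4.70 to 5.61). First introns of the same length classes held 5.71 (5.22 to 6.24) and 5.68 (5.28 to 6.11). In both of these classes the intervals of late and first introns overlapped. Peaks labelled as promoter peaks were not counted in first introns, though the whole intron length was, so first-intron densities are understated. The overlap therefore does not show equal density. First introns of 2 to 10 kb held 0.93 (0.63 to 1.32), and those under 2 kb held no peak in 6.6 Mb (0 to 0.56). Short first introns lie close to a TSS, where the annotation labels peaks as promoter peaks. Their densities can therefore not be compared with those of late introns of the same length. The density in late introns also differed between chromosomes, from 0.48 peaks per Mb on X to 5.72 on chromosome 13 and 6.95 on chromosome 15.

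**Figure D2:**
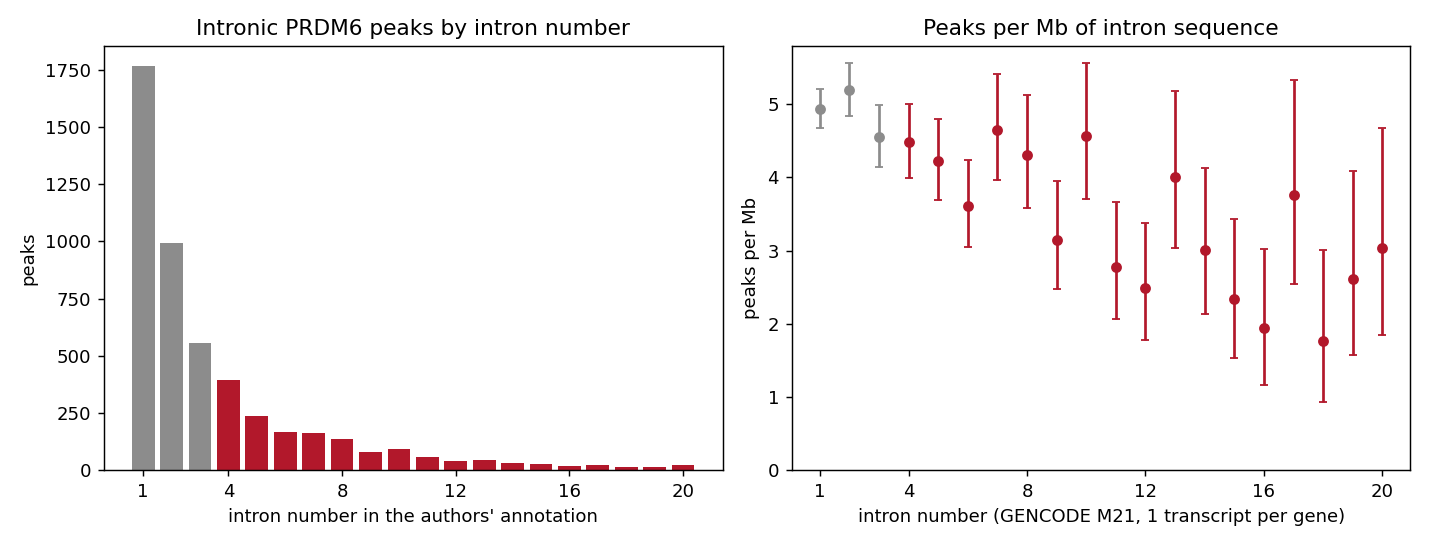
The left panel counts intronic peaks by the intron number of the annotation up to intron 20, with late introns in red. The right panel gives peaks per Mb of intron sequence with 95% Poisson intervals, which stayed above 4 in introns 1 to 5 and mostly fell below 4 from intron 9 on.

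AP-1 words were more frequent at the summits than in their flanks, here as in the whole list. Within 100 bp of the summit 288 of the 1703 peaks (16.9%, 95% Wilson interval 15.2 to 18.8) held an AP-1 word, against 79 (4.64%) in flanks of the same total length centred 1000 bp away, a ratio of 3.65 (exact McNemar test, two-sided, adjusted p = 9.77e-32 over 6 motifs). TEAD words were at 121 summits (7.11%) and in 58 flanks (3.41%), a ratio of 2.09 (same exact test, adjusted p = 4.24e-06). Among the 52 reproducible peaks the ratios were 3.2 and 2.5 and did not pass (exact test, adjusted p = 0.12 and 0.75). In the whole list 14.3% of summits and 3.92% of flanks held an AP-1 word, and 7.45% of summits and 3.23% of flanks a TEAD word. Words were counted on both strands, and a match is no evidence that the factor was bound. The sequences of Mrps27 and Rtkn2 above are of this kind, while 1309 peaks (76.9%) held neither word. Both words were in 15 peaks, among them that of Immp2l, and 29 peaks held 2 or more AP-1 words, as that of Ppp1r12b did.

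The other words were hardly more frequent at the summits. The study names a TTTC/AT sequence, a potential PRDM6 site from a published screen of zinc finger proteins. The words TTTCAT and TTTCCT were scanned for it. If the sequence stands for TTTCT or TTTAT, these words do not contain it and it was not scanned. TTTCAT or TTTCCT was at 780 summits (45.8%) and in 707 flanks (41.5%). The ratio of 1.10 passed the test (exact McNemar test, adjusted p = 0.025), though not with narrower windows, farther flanks or the second-listed summits. Among the 52 reproducible peaks it was 0.913 and did not pass. In the whole list 43.1% of summits held either word. RUNX words (TGTGGT) were at 16.6% of summits and 14.3% of flanks, and the ratio of 1.17 did not pass the exact test (adjusted p = 0.096). It passed with windows of 200 bp, with the first-listed summits and with the lowest intron number of any transcript. RBPJ words (GTGGGAA), the target of Notch signaling, were at 4.52% and 3.52% (ratio 1.28, exact test, adjusted p = 0.20). The CArG box, which binds SRF at contractile genes, was rare in both, with 21 summits and 19 flanks (exact test, adjusted p = 0.87). Whole-list shares at summits were 15.7% for RUNX, 4.65% for RBPJ and 1.41% for CArG. The base composition of the windows differed little, with a median GC content of 42.8% at summits and 41.5% in flanks, and repeats covered 17.2% of summit bases and 23.9% of flank bases.

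**Figure D3:**
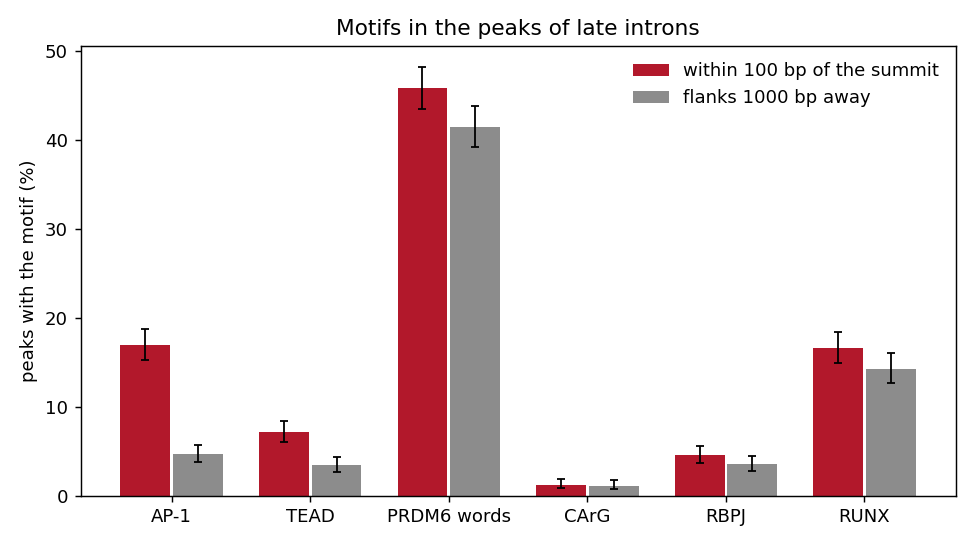
Bars give the share of the 1703 peaks with each motif within 100 bp of the summit (red) and in flanks centred 1000 bp away (grey), with 95% Wilson intervals. AP-1 (16.9% against 4.64%) and TEAD (7.11% against 3.41%) stand clear of their flanks, and the intervals of the other 4 pairs overlap. The bars named PRDM6 words are TTTCAT or TTTCCT, a possible reading of the study's TTTC/AT sequence. TTTCT and TTTAT were not scanned.

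The AP-1 share was 2.99 percentage points higher than in all other peaks (16.9% against 13.9%, 95% interval 1.17 to 4.94, Fisher's exact test, adjusted p = 0.016 over 12 comparisons). The differences from other intronic peaks were smaller and did not pass the test. First introns had 14.8% (difference 2.07 points, -0.37 to 4.51, same exact test, adjusted p = 0.46) and introns 2 and 3 15.3% (1.60 points, -0.94 to 4.12, adjusted p = 0.56). Among peaks more than 3 kb from any TSS the difference from all other peaks was 1.52 points (exact test, adjusted p = 0.38), and with 1 peak per gene 1.14 points (adjusted p = 0.54). It also did not pass with windows of 50 bp (1.84 points, exact test, adjusted p = 0.10), with the lowest intron number of any transcript (2.33 points, 0.21) or with the summits of the first-listed (1.73 points, 0.63) or second-listed replicate alone (1.53 points, 0.57). It was larger and passed from intron 5 on (3.80 points, exact test, adjusted p = 0.0035), without chromosomes 15 and X (3.51 points, 0.0034) and with windows of 200 bp (3.90 points, 0.0086). The TEAD share of 7.11% differed from that of first introns by -1.45 points (-3.24 to 0.34, Fisher's exact test, adjusted p = 0.46) and did not differ by the test from the other groups either (adjusted p = 0.84 for both). By intron number the AP-1 share ran from 13.1% in introns from 21 on to 18.7% in introns 6 to 10, with overlapping intervals. The word was at 16 of the 52 reproducible peaks (30.8%, 19.9 to 44.3) and 272 of the 1651 others (16.5%), where the flanks had 9.62% and 4.48%. Peaks with the lowest score were at 13.8%. The difference between these classes was not tested.

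**Figure D4:**
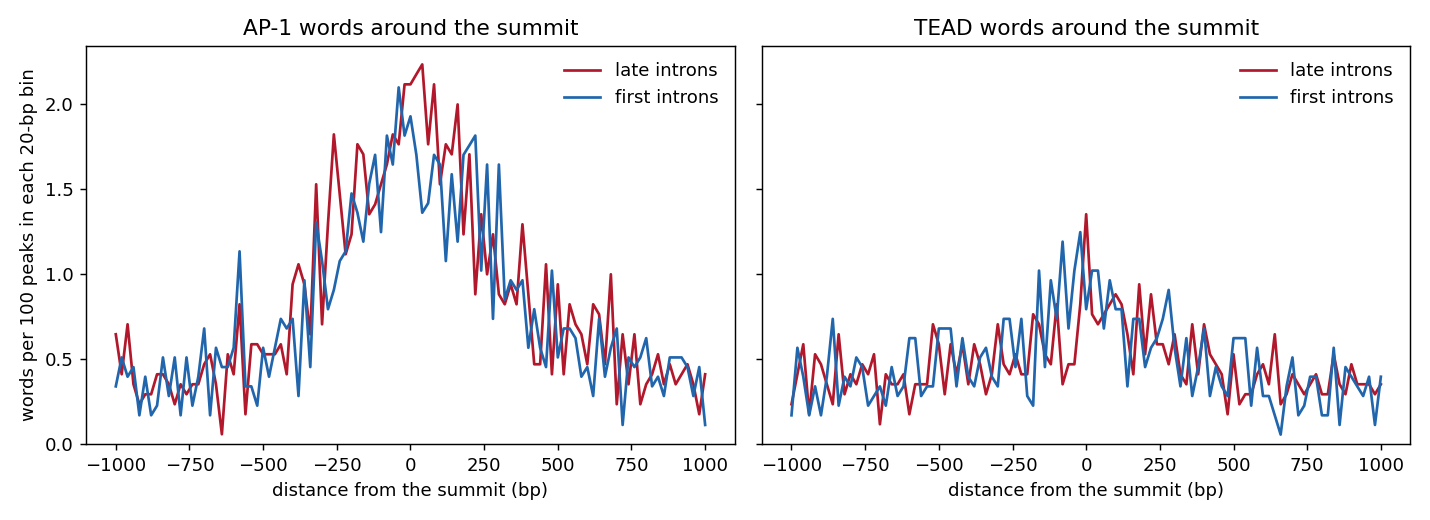
Lines give the number of AP-1 (left) and TEAD (right) words per 100 peaks in 20-bp bins against the distance from the summit in bp, for late introns (red) and first introns (blue). In late introns AP-1 words rose from 0.39 per bin beyond 790 bp to 2.13 at the centre (mean of the 3 central bins), and TEAD words from 0.38 to 0.98. Single bins rest on few words, as the 23 TEAD words in the central bin of late introns, and scatter around these means in both lines.

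The peaks lay in 867 host genes, taken from the annotated transcript. Of these, 498 genes held 1 peak, 190 held 2 and 179 held 3 or more, and 60 genes with 5 or more held 412 of the peaks. Of the peaks, 778 (45.7%) shared an intron with another and 657 (38.6%) had another within 10 kb. In 427 genes (49.3%) there was no peak in the first 3 introns or at the promoter, while 281 (32.4%) also had a promoter peak. The same shares were not counted for other peaks or other genes, so none of them is read as particular to late introns.

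Rad51b, a gene of homologous recombination repair, held the most, with 18 peaks that all lay in intron 7 on chromosome 12. Their values ran from 3.21 to 15.7 in the first-listed replicate (median 8.05) and from 4.31 to 13.7 in the second-listed (median 6.88). The intron was 330.4 kb long, and of the 18 peaks 1 was reproducible, 10 had a global IDR above 0.5, and none held an AP-1 word. Macrod2, an ADP-ribose hydrolase gene with a transcript of 1998 kb, held 15 with matched values from 3.21 to 10.9. Babam2, of the BRCA1-A complex, and Zbtb20, a zinc finger repressor, held 12 each, with medians of 6.76 and 5.99. Both genes also had promoter peaks, 1 in Babam2 and 6 in Zbtb20.

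The other 6 of the 10 genes held 10 or 11 peaks each. Zfpm2, which encodes the GATA cofactor FOG2 of heart development, had 11 peaks with matched values from 3.35 to 9.07, in introns 4 and 5, and was the only one of the 10 with peaks in all of promoter, first intron and intron 2 or 3. Sugct, a mitochondrial CoA transferase gene, had 11 with a median of 4.39, and Cdkal1, which modifies tRNA, had 10 with a median of 5.91 and a highest matched value of 12.1. Syt1, a calcium sensor of vesicle release, had 10 (4.31 to 9.37, median 6.401), as had Gm13986 (3.71 to 8.74) and Tmeff2, a transmembrane protein with follistatin-like domains (3.05 to 8.53). Of the 10 genes, 3 held a reproducible peak, namely Rad51b, Babam2 and Cdkal1. Some of these peaks lay in one of the first 3 introns of another transcript, as did 11 of 12 in Zbtb20, 4 of 10 in Syt1, 2 of 12 in Babam2, 2 of 10 in Tmeff2 and 1 of 15 in Macrod2.

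The gene to which the annotation assigned a peak was often not the gene that held it. Among 1647 peaks whose host had a gene number, 392 (23.8%, 95% Wilson interval 21.8 to 25.9) were assigned to another gene. The share was 8.90% (7.54 to 10.5) in first introns and 16.03% (14.2 to 18.1) in introns 2 and 3. No test was made of this difference. In Zfpm2, 10 of 11 peaks went to 4930555K19Rik, and in Tmeff2 6 of 10 went to Cavin2, a coat protein of caveolae. All 8 peaks of Spidr, a DNA repair scaffold gene, went to Cebpd, a C/EBP transcription factor. Counts of peaks by assigned gene therefore differ from counts by host.

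Genes of SMC biology were described in 8 lists, with the host gene as the owner of a peak. Among 14347 protein-coding genes with 4 or more introns, 800 (5.58%) held a peak in a late intron. The lists stood at 10.0 to 45.0%, but their genes were long, with medians of 15.4 to 95.7 kb of such introns against 10.5 kb over all genes, so densities are given beside the counts. The whole set had 3.64 peaks per Mb. Density itself rose with intron length, to 5.24 and 5.14 in the 2 classes of long late introns, so 3.64 is not a reference matched to these genes. In some genes named below, peaks lay in one of the first 3 introns of another transcript. These were all peaks of Adamtsl3, Foxp2, Nfia, Fgfr2 and Mef2c, 4 of 6 in Plcb1, 2 of 4 in Ctnna3, and 1 each in Ltbp1, Sema3a and Nrg1. Nothing is read from the lists as such, as they were chosen with results of these data known.

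Extracellular matrix genes had 9.29 peaks per Mb (6.54 to 12.8), with peaks in 12 of 43 genes (27.9%). Lama2 held 7, from intron 4 to intron 58, and the strongest, in intron 41, had 12.95 in the first-listed and 18.8 in the second-listed replicate. Fbn1, the fibrillin-1 gene of elastic microfibrils, held 5. Their values in the first- and second-listed replicates were 12.03 and 18.8 in intron 64, 10.2 and 9.10 in intron 32, 8.15 and 9.10 in intron 23, 6.92 and 9.10 in intron 14, and 4.71 and 4.31 in intron 54. All but the one in intron 14 were assigned to the neighbouring gene Dut. The peak in intron 64 (chr2:125304097-125305464) held an AP-1 word and had a global IDR of 0.028. Col5a3, a chain of type V collagen, had a single peak in intron 27 of 66 with 16.8 and 30.2. Ltbp1, which binds latent TGF-beta, and Col14a1, a fibril-associated collagen, held 5 each with matched values of at most 6.74 and 6.30, and Adamtsl3 held 3 with the strong peak described above.

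Chromatin and transcription regulators had 8.14 peaks per Mb (5.57 to 11.5), in 11 of 49 genes (22.5%). Hdac9, a class IIa histone deacetylase gene next to Twist1, held 5. Its strongest peak, in intron 24 (chr12:34075643-34076996), had 16.9 and 14.7 and was assigned to Twist1, a basic helix-loop-helix factor, as was the peak of 6.92 and 6.61 in intron 21. The remaining 3 lay in introns 13, 15 and 16 with matched values of 7.92, 4.97 and 5.84. Mef2c, a MADS-box factor of muscle genes, had 1 peak in intron 4 with 22.1 and 15.9. Tead1, one of the TEAD factors, had 1 in intron 8 with 17.9 and 11.8 that was assigned to Rassf10. Rbms3, an RNA-binding protein gene, held 5, the strongest with 12.95 and 13.7. Foxp2 and Nfia, both transcription factor genes, held 4 and 3 with matched values of at most 8.25 and 7.71.

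The list of growth factor receptors and their kinases, which also held phospholipases, phosphodiesterases and exchange factors (the Plcb, Pde, Dock and Vav genes among them), had 7.95 peaks per Mb (5.37 to 11.4), in 18 of 40 genes (45.0%). Plcb1, a phospholipase C of Gq signaling, held 6 with matched values from 3.71 to 6.42. Fgfr2, a fibroblast growth factor receptor, held 2, with 14.95 and 15.6 in intron 4 and 6.92 and 4.39 in intron 7. Prkg1, the cGMP-dependent kinase of SMC relaxation, held 3 with matched values from 3.68 to 6.84. Pde3a, a phosphodiesterase of cAMP, held 2, with matched values of 10.2 and 11.3, both assigned to Slco1c1. Of the 18 genes, Fgfr2 was the one with a reproducible peak.

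Guidance genes had 6.57 peaks per Mb (4.29 to 9.62), in 11 of 31 genes (35.5%). Sema3a, a secreted semaphorin, held 6, and its first-listed values ran from 4.04 to 21.002, while its second-listed values stayed at or under 6.61. Sema3d and Sema3e, both secreted semaphorins, and Nrp1, a semaphorin co-receptor, held 3 each, with matched values of at most 9.37, 6.39 and 6.95. No guidance gene had a reproducible peak.

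Integrin and adhesion genes had 4.75 peaks per Mb (3.27 to 6.67), in 16 of 36 genes (44.4%). Ctnnd2 held 6 and Cdh18 held 4, each with 1 of the 10 strongest peaks. Ctnna3, an alpha-catenin of heart and testis, held 4 with matched values of at most 5.42, and Ptprg, a receptor phosphatase, held 3 with at most 6.61.

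Smooth muscle contractile and actin cytoskeleton genes had 3.86 per Mb (2.42 to 5.84), in 11 of 39 genes (28.2%). Palld, an actin-bundling protein, held 4, all in intron 9 and with matched values from 4.98 to 7.71. Fhod3, a formin, held 3 and Utrn, the utrophin gene, held 2, with at most 6.92 and 6.39. The list of TGF-beta, BMP and Notch genes, in which Nrg1, a ligand of ERBB receptors of no such pathway, had been placed, had 4.75 per Mb (1.54 to 11.1), in 3 of 30 genes (10.0%). Tgfbr3, the betaglycan co-receptor, held 2 strong ones, with 13.9 and 13.9 in intron 4 and 12.03 and 11.8 in intron 14. Nrg1 held 2 with matched values of 4.33 and 8.25, and Acvr1, a BMP type I receptor, held 1 at 4.39. Channels and calcium handling genes had 3.32 per Mb (1.77 to 5.67), in 7 of 26 genes (26.9%). Itpr1, the inositol trisphosphate receptor of calcium release, held 5 with matched values from 4.33 to 10.2. Cacna2d1, a calcium channel subunit, and Piezo2, a mechanically gated channel, held 2 each with at most 6.61 and 5.00, and Kcnh1, a potassium channel, held 1 at 10.9.

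**Figure D5:**
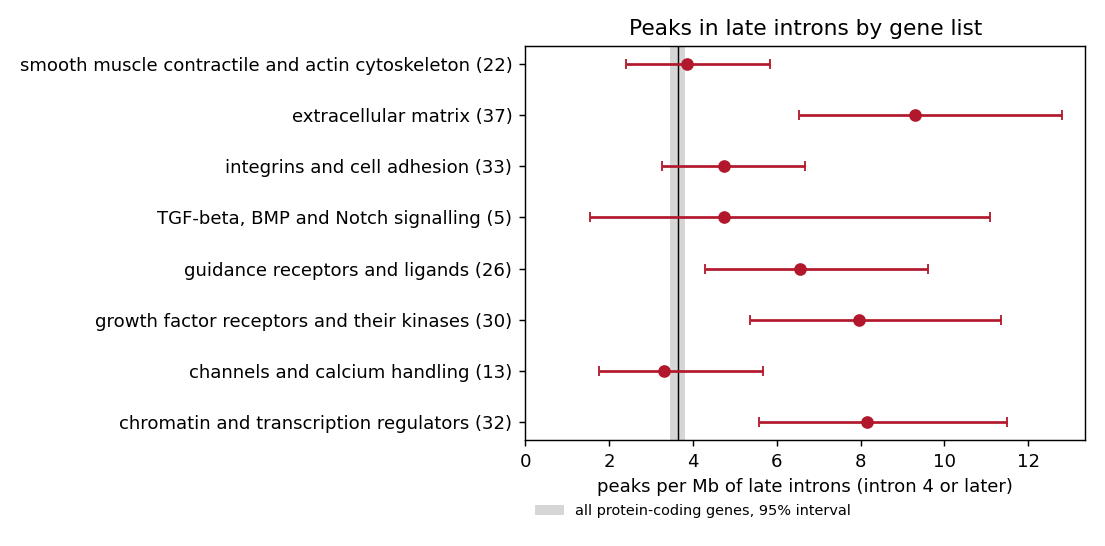
Points give peaks per Mb of late introns for the genes of each list with 95% Poisson intervals, and the number of peaks is in parentheses. The vertical line is the value over all protein-coding genes (3.64), and the extracellular matrix genes (9.29) lie farthest to its right while the channel genes (3.32) lie to its left.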

How the data were processed

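ChIP-seq was performed on 4 libraries, 2 of PRDM6 ChIP and 2 of Input. The authors aligned reads to mm10 with BWA, called peaks in each ChIP library against Input with MACS2, matched both replicates by IDR and annotated the matched peaks; tool versions are not given in the sources used here. The deposited list gave MACS2 −log10 p-values per replicate and for the matched peak, −log10 IDR values, and a scaled IDR score, where a score of 540 stands for a global IDR of 0.05. Its signal and q-value columns were placeholders, so −log10 p served as strength. The deposited annotation's column headed q-value repeated the second-listed replicate's −log10 p. No value of the Input libraries was in the list, and read totals per library were not given, so depth was read from p-values that fall on Poisson tails within 0.0002.

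Coordinates are counted from 1. Sequence came from GRCm38 and gene models from GENCODE M21, in which 1698 of 1703 annotated transcripts were found. The host gene is the gene of the annotated transcript. Motif words were searched on both strands within 100 bp of the summit. Shares were compared with Fisher's exact test over 12 comparisons, and summits with flanks by the exact McNemar test over 6 motifs, with Benjamini-Hochberg adjustment and a threshold of 0.05. Tests and 95% intervals (Wilson for shares, Newcombe for differences, exact Poisson for densities) cover counting error over peaks only, because peaks are not replicates. The routines were tested on simulated data. SciPy 1.17.1, NumPy 2.4.6 and pandas 2.3.3 were run under Python 3.11.15, and plots were drawn with matplotlib 3.10.9.

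The members and gene lists were chosen with earlier results of these data known. Named were the 10 strongest peaks, the 10 genes with the most peaks, and in each list the 4 genes with the most peaks and all with a reproducible peak, except 1 gene that is not reported here. Trps1, Spidr, the genes of sequences shown for their words and the neighbours given beside a peak were named after their values were seen. Alternatives were peaks with a low IDR, 1 peak per gene, other intron, TSS and chromosome limits, each replicate alone, and other windows, flanks and thresholds.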

Additional observations from a re-analysis of the deposited data

How the results depend on the processing

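No paired analysis was possible because the list held no value of the Input libraries, so numbers shared by ChIP and Input could not be used. The ratio of AP-1 and TEAD words at summits over flanks passed the test with other windows, farther flanks, the summits of each replicate, 1 peak per gene and the lowest intron number, but not under the restriction to the 52 reproducible peaks, where AP-1 had a ratio of 3.2 and TEAD of 2.5. The higher AP-1 share against all other peaks kept its call from intron 5 on (3.80 percentage points), without chromosomes 15 and X (3.51) and with 200-bp windows (3.90), and lost it under the other alternatives. Its difference was then 6.31 among the 52 reproducible peaks, 1.14 with 1 peak per gene, 1.52 beyond 3 kb of any TSS, 1.84 with 50-bp windows and 2.33 with the lowest intron number over all transcripts, and 1.53 to 1.73 with the summit of one replicate alone, none of them past the threshold. The cause was not tested.

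TTTCAT or TTTCCT lost its call with 50-bp windows (ratio 1.085) and with flanks 3000 bp away (1.088), reached 1.063 to 1.10 with the summits of one replicate, and reversed to 0.913 among reproducible peaks. RUNX words passed with 200-bp windows (1.179), with the lowest intron number (1.222) and with the first-listed summits (1.117 to 1.232 over both replicates). CArG reversed to 0.875 with farther flanks and ran from 0.75 to 1.20 with the summits of one replicate.

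In all 20 values changed sign, none of them past the threshold. Beside those above, strength against first introns was 3.45 points among reproducible peaks, 2.40 with 1 peak per gene, 0.32 without chromosomes 15 and X and 0.69 by the lowest intron number. Against introns 2 and 3, strength was -0.34 at the upper quartile, and -0.17 to 1.21 with one replicate alone. Against all other peaks it was -2.19 with 1 peak per gene, -1.24 beyond 3 kb of any TSS, -0.996 at the upper quartile, and -0.88 to 0.49 with one replicate alone. The IDR share against first introns was 0.31 with 1 peak per gene and 0.15 at a limit of 0.01, and 0.20 against all other peaks at that limit. Among reproducible peaks, AP-1 against first introns was -0.27 and TEAD 0.99. By the lowest intron number, TEAD was 0.22 against introns 2 and 3 and 0.10 against all other peaks.

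The reproducible peaks numbered 52 peaks in 51 genes, which included 1 contractile, 4 matrix, 2 adhesion, 1 TGF-beta, 0 guidance, 1 growth factor, 0 channel and 4 chromatin genes. The alternative with the lowest intron number was chosen after seeing the data. The median heights of 13 to 15 fragments limit what a single peak can show.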

Other observations

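The 6 late-intron peaks that differed most between replicates had a far higher value in one than in the other. They were picked by the size of that difference after the values were seen. Pde4b, a cAMP phosphodiesterase gene, had 5.42 (−log10 p) in the first-listed and 27.8 in the second-listed replicate at a peak in intron 7. Mdh1b, a malate dehydrogenase-like gene, had 23.2 and 4.46 in intron 9 at a peak assigned to Dytn. Ank2, the ankyrin B gene, had 25.4 and 8.25 in intron 5. Sema3a had 21.002 and 6.61 at its strongest peak, in intron 7. Pard3b, a cell polarity gene, had a peak in intron 21 that was assigned to Nrp2 and had a second-listed value of 6.86, and Nalcn, a sodium leak channel gene, had 19.91 and 5.84 in intron 7. The first-listed value was the higher in 5 of these 6 peaks. Their global IDR ran from 0.23 to 0.60, and the difference was not tested.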
